A study of Mus musculus with 8 samples.

Results

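This account covers 9 genes of bone morphogenetic protein (BMP) signalling in isolated gonadotropes, the pituitary cells that make luteinizing hormone and follicle-stimulating hormone. The genes were the antagonists *Grem1* and *Nog*, the ligands *Bmp2*, *Bmp4*, *Bmp6* and *Bmp7*, and the receptors *Bmpr1a*, *Bmpr1b* and *Bmpr2*. They were chosen by symbol, and each of the 9 symbols matched 1 of the 55523 entries of the count table. RNA was sequenced from EGFP-expressing cells sorted from pituitaries of Ad4BP-BAC-EGFP mice, in which a transgene built on an artificial chromosome carrying *Nr5a1* sequence drives EGFP, with 4 samples from females and 4 from males. All 8 samples carry this transgene, and no treatment or age is given for them. The labels give neither whether a sample pooled several animals nor whether replicates were separate animals, so the p-values measure the spread between these samples. Male replicate 1, which the study left out of its own analysis, is shown apart. The comparison below is of male replicates 2, 3 and 4, called males 2 to 4, with the 4 female replicates, called females 1 to 4.

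BMPs are secreted dimers that bring together type I and type II receptor kinases on the cell surface. The activated type I receptor phosphorylates SMAD1, SMAD5 or SMAD9, which enter the nucleus with SMAD4 and switch on genes such as those of the *Id* family. Gremlin and noggin bind the ligands outside the cell and keep them from their receptors. In the pituitary, BMPs are known for patterning the early gland and, in cultured gonadotropes, for acting together with activins on *Fshb*.

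Total counts ranged from 18774578 to 31302588 per sample. *Xist* was between 215 and 414 CPM (the usual depth-scaled count unit, here with edgeR's TMM scaling over the 8 samples) in the 4 females and at most 3.67 CPM in the 4 males, and *Ddx3y* was at least 152 CPM in the males and at most 0.368 CPM in the females, so the sex labels matched. The level of *Nr5a1*, the gene from which the transgene takes its name, was 862 to 1266 CPM in the females and 584 to 801 CPM in males 2 to 4, but 16.3 CPM in male replicate 1. The summed CPM of 5 gonadotrope markers was 21488 to 34863 in the females, 67930 to 75717 in males 2 to 4 and 28423 in male replicate 1. The 5 did not go the same way. *Lhb*, *Cga* and *Gnrhr* overlapped between the sexes, and *Nr5a1* was higher in each female than in each of males 2 to 4. In male replicate 1 *Lhb*, at 9337 CPM, was inside the range of males 2 to 4, while *Cga*, *Gnrhr* and *Nr5a1* were below both ranges. *Fshb*, for the FSH beta subunit, was 8.72-fold higher in males (adjusted p = 0.0449 by edgeR's quasi-likelihood test, n = 3 and 4). The *Fshb* call held in 1 of the 7 fits that left out a sample, with adjusted p-values of 0.0325 to 0.135, and the adjusted p reached 0.263 over the alternatives. Of hormone transcripts of other pituitary cells, *Gh*, *Prl* and *Pomc* were at least 12394, 1621 and 10140 CPM in each of the 8 samples. *Tshb*, of thyrotropes, was far lower, at 20.9 to 339 CPM. The 2 somatotrope markers summed to 12397 to 57867 CPM in the females, 65338 to 142305 CPM in males 2 to 4 and 30152 CPM in male replicate 1, neither passed the threshold, and their part in the results below was not tested. In bulk samples of this kind, fewer cells of a type and less RNA per cell cannot be told apart.

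Between the sexes, 1 of the 9 genes passed the threshold, an adjusted p of 0.05 in edgeR's quasi-likelihood test over 20152 genes. This was *Grem1*, the gene for gremlin 1, which was 399-fold higher in males. The other 8 genes did not pass. Of all genes tested, 2.34% passed, 0.983% as higher in males and 1.35% as higher in females. The median log2 fold change of male over female was -0.35 over the 9 genes and -0.030 over all genes tested.

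**Figure D1:**
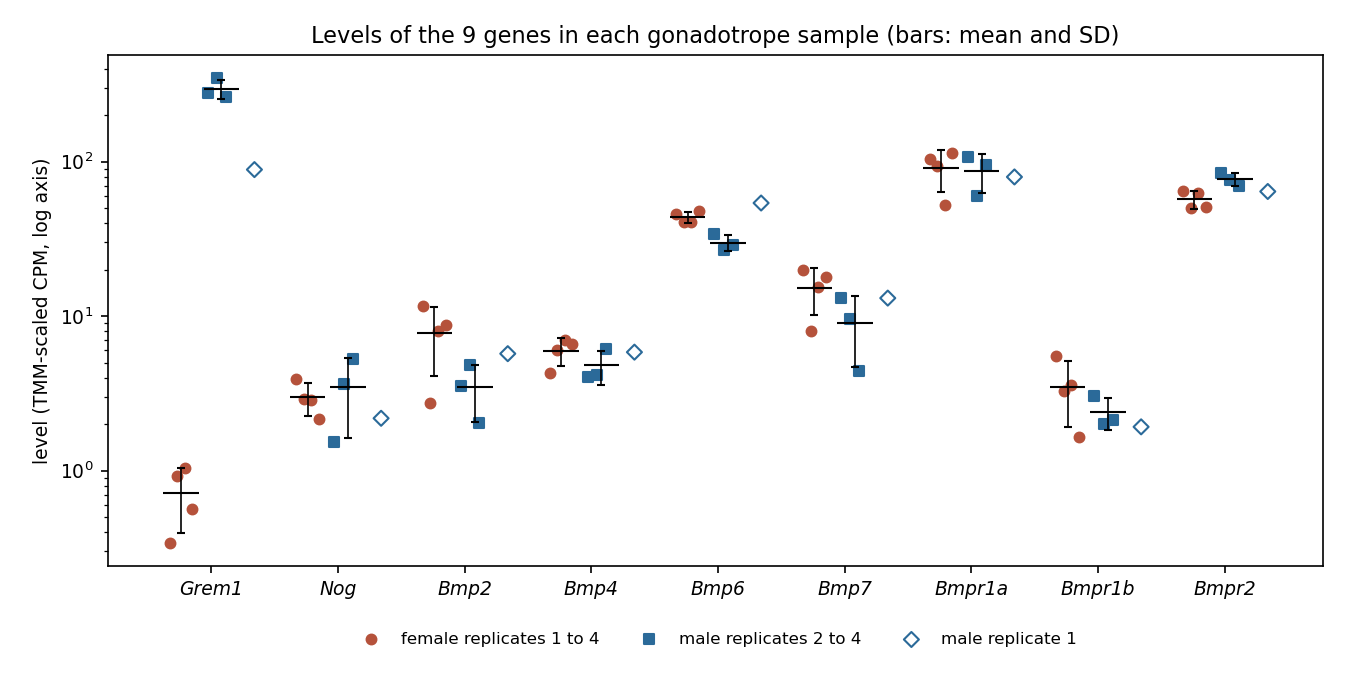
Level of each of the 9 genes in each sample, in TMM-scaled CPM on a log axis, with circles for the 4 females, squares for males 2 to 4, an open diamond for male replicate 1, and bars for the mean and SD. *Grem1* was between 0.342 and 1.04 CPM in the females and between 264 and 346 CPM in males 2 to 4, while 6 of the other 8 genes had ranges that overlapped between the sexes.

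*Grem1* (ENSMUSG00000074934.3) lies on the minus strand at chr2:113746164-113758646 of mm10 (GRCm38) in the GENCODE M21 annotation. It was 0.342, 0.927, 1.04 and 0.562 CPM in females 1 to 4, from 8, 19, 34 and 13 counts. In male replicates 2, 3 and 4 it was 279.5, 346 and 264 CPM, from 7094, 9174 and 5823 counts. The lowest of these males was thus above each of the females by more than 2 orders of magnitude, and the females, though low, were each above the floor of 3 counts. The mean was 297 ± 43.6 CPM (SD, n = 3) in males and 0.719 ± 0.324 CPM (SD, n = 4) in females. The log2 fold change was 8.64 (standard error 0.44, adjusted p = 0.000826 by edgeR's quasi-likelihood test). By size of the fold change it ranked 8 among the 20152 genes when ordered from the highest in males, and it ranked 4 by p. A two-sided exact permutation test of mean log2(CPM + 1) gave p = 0.0286, the smallest value that the 35 splits of 3 samples against 4 can give. Leaving out any one of the 7 samples gave log2 fold changes from 8.43 to 8.90, each past the threshold, and over the 14 alternatives the adjusted p reached 0.139, in the 1 that ended the call. No annotated gene overlaps *Grem1*, and no other symbol shares its entry's locus name.

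The sequence before the start of *Grem1* is shown because this gene carries the sex difference. It is the 250 bases upstream of the RefSeq start, chr2:113758649-113758898 of GRCm38.p6 on the minus strand, written from its 5′ end. Capitals mark TGACCT, which is the nuclear receptor half-site AGGTCA read on the other strand, then GGCGCC, a sequence that BMP-activated SMADs are known to bind, and then the AT-rich box TTTAAA.

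Grem1: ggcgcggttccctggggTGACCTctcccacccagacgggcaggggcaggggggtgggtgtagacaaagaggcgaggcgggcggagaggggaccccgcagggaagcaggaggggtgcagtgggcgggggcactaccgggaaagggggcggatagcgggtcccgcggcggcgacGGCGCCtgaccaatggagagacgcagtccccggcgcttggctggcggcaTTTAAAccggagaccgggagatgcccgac

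Counted back from the start, the half-site spanned positions -233 to -228, the GGCGCC sequence -78 to -73 and the AT-rich box -29 to -24. The longer sequence CAAGGTCA, to which NR5A1 is known to bind, was not among the 250 bases. Both strands were searched, and the half-site AGGTCA lies within CAAGGTCA. Of 32851 RefSeq promoters of this length, 14.0% held AGGTCA, 1.33% CAAGGTCA, 9.59% GGCGCC and 12.1% TTTAAA. G and C made up 72% of the *Grem1* window, against a median of 52.4% over all promoters. Promoters were matched for 6 of the 9 genes. Among the other 5, *Bmpr2* and *Bmpr1a* held GGCGCC, *Bmpr2* also held TTTAAA, 1 of the 3 listed *Bmpr1b* promoters held AGGTCA, and *Bmp4* and *Bmp6* held none of the 4 sequences. A match of letters is a description and shows no binding.

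*Nog* (ENSMUSG00000048616.4, chr11:89300638-89302332) encodes noggin, an antagonist that binds BMP ligands with high affinity. It was 3.93, 2.93, 2.88 and 2.16 CPM in females 1 to 4 and 1.54, 3.66 and 5.27 CPM in males 2 to 4. The males had both the lowest and the highest of these values, and the ranges overlapped. The log2 fold change was 0.20 (standard error 0.44, adjusted p = 0.858 by edgeR's quasi-likelihood test), and it changed sign without male replicate 4, to -0.23, and with library size in place of TMM, to -0.028.

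Of the 4 ligands, none passed the threshold by edgeR's quasi-likelihood test and 2 had an unadjusted p under 0.05, as did 19.9% of all genes tested. *Bmp6* (ENSMUSG00000039004.6, chr13:38345107-38500302), a ligand otherwise known for control of iron balance by endothelial cells, had the highest level per length of the 4. It was 45.9, 40.4, 40.7 and 47.9 CPM in females 1 to 4 and 33.9, 27.0 and 29.0 CPM in males 2 to 4. Each female was above each male, as for 10.8% of all genes tested. The means were 43.7 ± 3.75 CPM (SD, n = 4) and 29.9 ± 3.56 CPM (SD, n = 3). The log2 fold change was -0.58 (standard error 0.15, adjusted p = 0.0965 by edgeR's quasi-likelihood test), and the two-sided exact permutation test gave p = 0.0286. DESeq2 gave an adjusted p of 0.0116, and edgeR with library size alone one of 0.0427, a setting that moved the median of all genes to -0.24. Over the 15 alternatives the adjusted p ranged from 0.0116 to 0.793, the highest being with male replicate 1 included. In that sample *Bmp6* was 54.0 CPM, above each of the other 7. The last 224 bases of *Bmp6* overlap an exon of *Txndc5* on the other strand, and the counting is not stated to use strand. The *Txndc5* entry was at most 3.22 CPM in female replicates 2 and 3 and male replicate 4 and at least 130.3 CPM in each of the other 5 samples. The females with the lower *Txndc5* also had the lower *Bmp6*, at 40.4 and 40.7 CPM against 45.9 and 47.9 CPM, and male replicate 4 had the middle *Bmp6* value of males 2 to 4. The part of *Txndc5* reads in the *Bmp6* values was not tested.

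*Bmp2* (ENSMUSG00000027358.6, chr2:133552159-133562885) and *Bmp4* (ENSMUSG00000021835.15, chr14:46383520-46390669) are close relatives that gremlin and noggin both bind. *Bmp2* was 11.7, 2.73, 8.01 and 8.82 CPM in females 1 to 4 and 3.51, 4.83 and 2.04 CPM in males 2 to 4. Female replicate 2 lay among the males, and the other 3 females were above them. The log2 fold change was -1.20 (standard error 0.51, adjusted p = 0.251 by edgeR's quasi-likelihood test). *Bmp4* was 4.28, 6.05, 6.97 and 6.61 CPM in the females and 4.02, 4.19 and 6.18 CPM in the males, with overlapping ranges and a log2 fold change of -0.35 (standard error 0.27, adjusted p = 0.542 by the same test).

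*Bmp7* (ENSMUSG00000008999.7, chr2:172868012-172940321), which is needed for kidney and eye development, was 19.9, 8.05, 15.3 and 17.8 CPM in the females. It was 13.2, 9.63 and 4.405 CPM in males 2 to 4. As with *Bmp2*, female replicate 2 was the lowest female and lay within the male range, and male replicate 4 was the lowest of all. This gave a log2 fold change of -0.79 (standard error 0.43, adjusted p = 0.377 by edgeR's quasi-likelihood test).

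**Figure D2:**
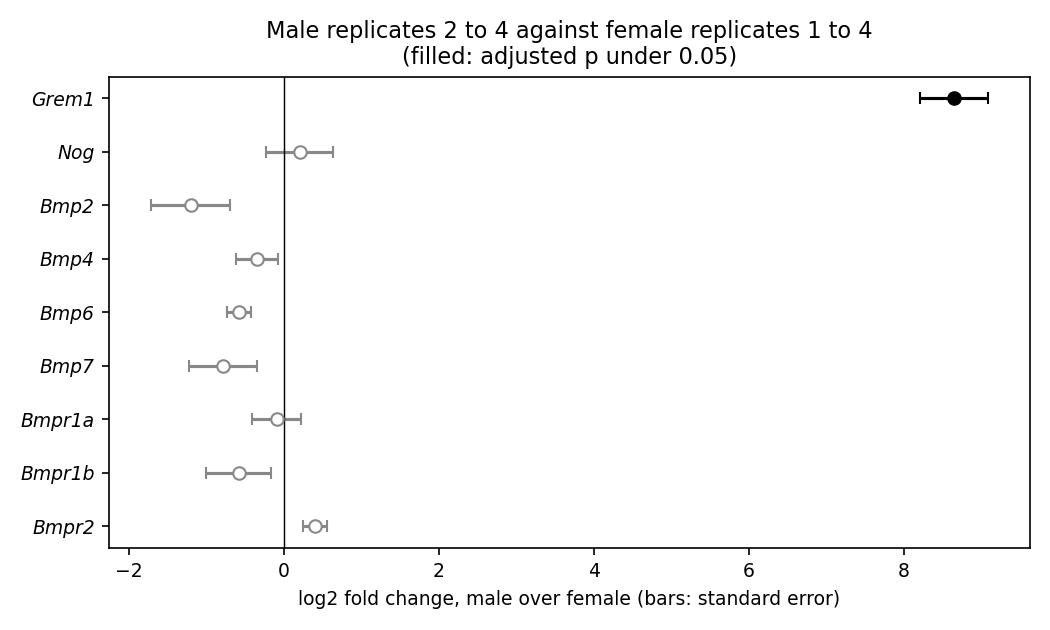
Log2 fold change of males 2 to 4 over females 1 to 4 for each of the 9 genes, with the standard error as a bar and a filled point where the adjusted p was under 0.05. *Grem1*, at 8.64, is the filled point, and the other 8 lie between -1.20 and 0.40.

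None of the 3 receptors passed the threshold. *Bmpr2* (ENSMUSG00000067336.6, chr1:59763400-59879014), the type II receptor for BMPs, was 64.6, 50.0, 62.7 and 50.6 CPM in females 1 to 4 and 84.9, 75.9 and 70.1 CPM in males 2 to 4. Each of these males was above each female, as for 11.5% of all genes tested, while male replicate 1, at 64.2 CPM, was inside the female range. On the log2 scale the fold change was 0.40 (standard error 0.15, adjusted p = 0.203 by edgeR's quasi-likelihood test), and the two-sided exact permutation test gave p = 0.0571.

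*Bmpr1a* (ENSMUSG00000021796.15, chr14:34410734-34503341), a widely expressed type I receptor, was 105, 94.0, 52.5 and 115 CPM in the females and 108, 59.9 and 95.0 CPM in males 2 to 4. In each sex 1 sample, replicate 3, was well below the others, and the means of 91.4 ± 27.3 CPM (SD, n = 4) and 87.7 ± 24.9 CPM (SD, n = 3) differed by less than either SD. Male over female, the log2 fold change was -0.094 (standard error 0.32, adjusted p = 0.915 by edgeR's quasi-likelihood test), and its sign changed when female replicate 4 or male replicate 3 was left out, to 0.057 and 0.12. *Bmpr1b* (ENSMUSG00000052430.15, chr3:141837136-142169425), a type I receptor known for its part in ovulation rate in sheep, was low, at 5.52, 3.27, 3.59 and 1.64 CPM in the females and 3.03, 2.001 and 2.13 CPM in the males. The ranges overlapped, and the log2 fold change was -0.58 (standard error 0.42, adjusted p = 0.514 by the same test). Of the 9 genes, 3 had ranges that did not overlap between the sexes, against 22.3% of all genes tested.

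To set the genes beside each other, CPM was divided by the summed length of their exons in GENCODE M21. The annotation used for counting is not given in the sources used here, so these lengths may not match the counted entries. In the males *Grem1* had the highest level per length of the 9, at 71.5 ± 10.5 CPM per kb (SD, n = 3), followed by *Bmpr1a* at 13.8, *Bmp6* at 7.68 and *Bmpr2* at 4.28 CPM per kb, and the ranges of neighbours among these 4 did not overlap. *Bmp7*, *Bmp4* and *Nog* followed at 2.26, 2.13 and 2.06 CPM per kb, in ranges that overlapped, and *Bmp2* and *Bmpr1b* at 0.973 and 0.401 CPM per kb were the lowest. The range of *Bmp2* overlapped that of *Nog* and not that of *Bmpr1b*.

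In the females *Grem1* had the lowest level per length of the 9, at 0.173 ± 0.0781 CPM per kb (SD, n = 4). *Bmpr1a* at 14.4 and *Bmp6* at 11.2 CPM per kb were the highest, with overlapping ranges. They were followed by *Bmp7*, *Bmpr2*, *Bmp4*, *Bmp2* and *Nog*, between 3.80 and 1.76 CPM per kb and each overlapping the next, and by *Bmpr1b* at 0.588 CPM per kb. With the length of the longest transcript in place of all exons, the male order was the same, and in the females *Bmpr2* and *Bmp7* changed places.

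**Figure D3:**
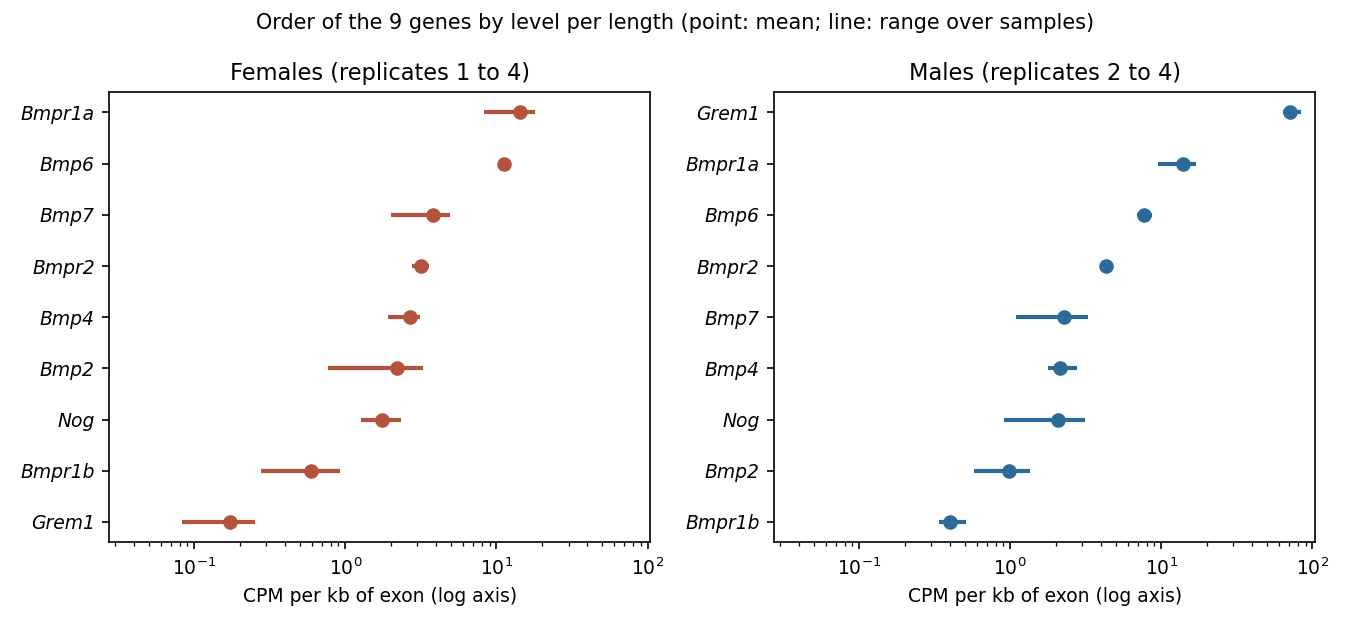
The 9 genes ordered by level in CPM per kb of exon, on a log axis, in females (left) and males (right), with a point for the mean and a line for the range over samples. *Grem1* is at the bottom in females, at 0.173 CPM per kb, and at the top in males, at 71.5 CPM per kb.

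Shares of the ligands and of the type I receptors were taken within each sample, and their ranges overlapped between the sexes. *Bmp6* made up 53.2% to 65.5% of the summed level per length of the 4 ligands in the females, 55.2% to 62.7% in males 2 to 4 and 65.0% in male replicate 1. *Bmpr1a* made up 57.7% to 70.7% of the type I receptors *Bmpr1a*, *Bmpr1b* and *Acvr1* in the females and 53.3% to 69.9% in the males, and *Bmpr1b* at most 4.203%. Per length, *Bmpr1a* was 2.37 to 6.41 times *Bmpr2* in the females (mean 4.67) and 2.24 to 3.84 times it in males 2 to 4 (mean 3.23), in ranges that overlapped, and this difference was not tested. These ratios are lower with the length of the longest transcript. With it the mean of *Bmpr2* went from 3.17 to 4.42 CPM per kb in the females and from 4.28 to 5.97 in males 2 to 4. That of *Bmpr1a* went from 14.4 to 15.3 and from 13.8 to 14.7. The summed ligand level was 15.8 to 22.1 CPM per kb in the females and 11.8 to 14.7 CPM per kb in males 2 to 4, and it was 21.3 CPM per kb in male replicate 1, inside the female range. *Grem1* was 4.57 to 6.66 times this sum in males 2 to 4, 1.01 times it in male replicate 1, and at most 0.0141 times it in the females. *Nog* was between 0.0576 and 0.262 times the sum in the 8 samples. These are transcript levels, and protein was not measured.

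Male replicate 1 lay between the sexes for *Grem1*. Its 88.9 CPM, from 2037 counts, was 3.34-fold below the mean of the other males and 124-fold above that of the females. For 4 of the other 8 genes, *Nog*, *Bmp4*, *Bmp7* and *Bmpr1a*, it was inside the range of both sexes. *Bmp2*, at 5.72 CPM, *Bmpr1b*, at 1.92 CPM, and *Bmpr2* were inside the female range and outside that of the other males, and *Bmp6* was above both. With this sample in the fit, the log2 fold change of *Grem1* was 8.39 (adjusted p = 0.00474 by edgeR's quasi-likelihood test), and 1 of the 9 genes passed, where 0.342% of all genes in that fit did.

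The rest of the pathway was examined with 68 genes in 6 lists, of which 50 passed the filter on low counts and 8 had 0 counts in each of the 8 samples. Of the 50, 2 passed the threshold as higher in males and 1 as higher in females, where 0.983% and 1.35% of all genes tested did. The median log2 fold change was -0.18, against -0.030 over all genes tested. Of the 13 other antagonists, 9 were tested, and *Bmper* was higher in males. Of the 14 other ligands, 5 were tested, and *Gdf11* was higher in females. Of the 13 target genes, 11 were tested, and *Gata2* was higher in males. None of the 9 receptors and co-receptors, 12 SMADs and regulators and 4 proteases tested passed by edgeR's quasi-likelihood test, with 2, 3 and 2 of them at an unadjusted p under 0.05, as for 19.9% of all genes tested. DESeq2 called 10 of the 53 genes to which it gave an adjusted p, where it called 9.93% of all genes with one.

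*Bmper* (ENSMUSG00000031963.8, chr9:23223076-23485200) encodes a secreted protein that binds BMPs and modulates their action. It was 4.28, 6.68, 7.98 and 8.13 CPM in the females and 53.4, 59.2 and 41.0 CPM in males 2 to 4, with each male above each female. On the log2 scale the fold change was 2.88 (standard error 0.27, adjusted p = 0.00885 by edgeR's quasi-likelihood test), which corresponds to 7.38-fold higher in males. Male replicate 1, at 26.2 CPM, was between the sexes here as well.

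*Gdf11* (ENSMUSG00000025352.6, chr10:128882295-128891718) encodes a ligand of the wider TGF-β family that is known to act mainly through activin-type receptors. It was 105, 69.4, 96.8 and 94.2 CPM in the females, 25.4, 22.3 and 21.6 CPM in males 2 to 4, and 35.5 CPM in male replicate 1. Male over female, the log2 fold change was -2.01 (standard error 0.18, adjusted p = 0.00875 by edgeR's quasi-likelihood test), which corresponds to 4.04-fold higher in females. Per length its mean was 22.5 CPM per kb in the females, where the highest mean of the 4 BMP ligands was 11.2 CPM per kb. *Bmper*, *Gdf11* and *Gata2* passed with each sample left out in turn, and with male replicate 1 included, and 1 of the 15 alternatives ended their calls, at adjusted p-values of 0.196, 0.211 and 0.216.

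*Gata2* (ENSMUSG00000015053.14, chr6:88193891-88207032), a transcription factor gene of gonadotropes and thyrotropes that BMP signals are known to induce in the developing gland, was 64.4, 64.8, 64.8 and 68.5 CPM in the females and 306, 249.7 and 187 CPM in males 2 to 4. This gave a log2 fold change of 1.88 (standard error 0.17, adjusted p = 0.00885 by edgeR's quasi-likelihood test). Unlike for *Grem1*, male replicate 1 was above both ranges, with 330.4 CPM. The 2 thyrotrope markers, *Tshb* and *Trhr*, summed to 238 to 345 CPM in males 2 to 4, 21.4 to 85.2 CPM in the females and 83.6 CPM in male replicate 1. By edgeR's quasi-likelihood test neither passed the threshold, *Tshb* having an adjusted p of 0.0525, whereas DESeq2 called *Tshb* (adjusted p = 0.000114), as did edgeR with library size alone and with at least 10 counts in every sample. The part of these cells in the *Gata2* difference was not tested.

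**Figure D4:**
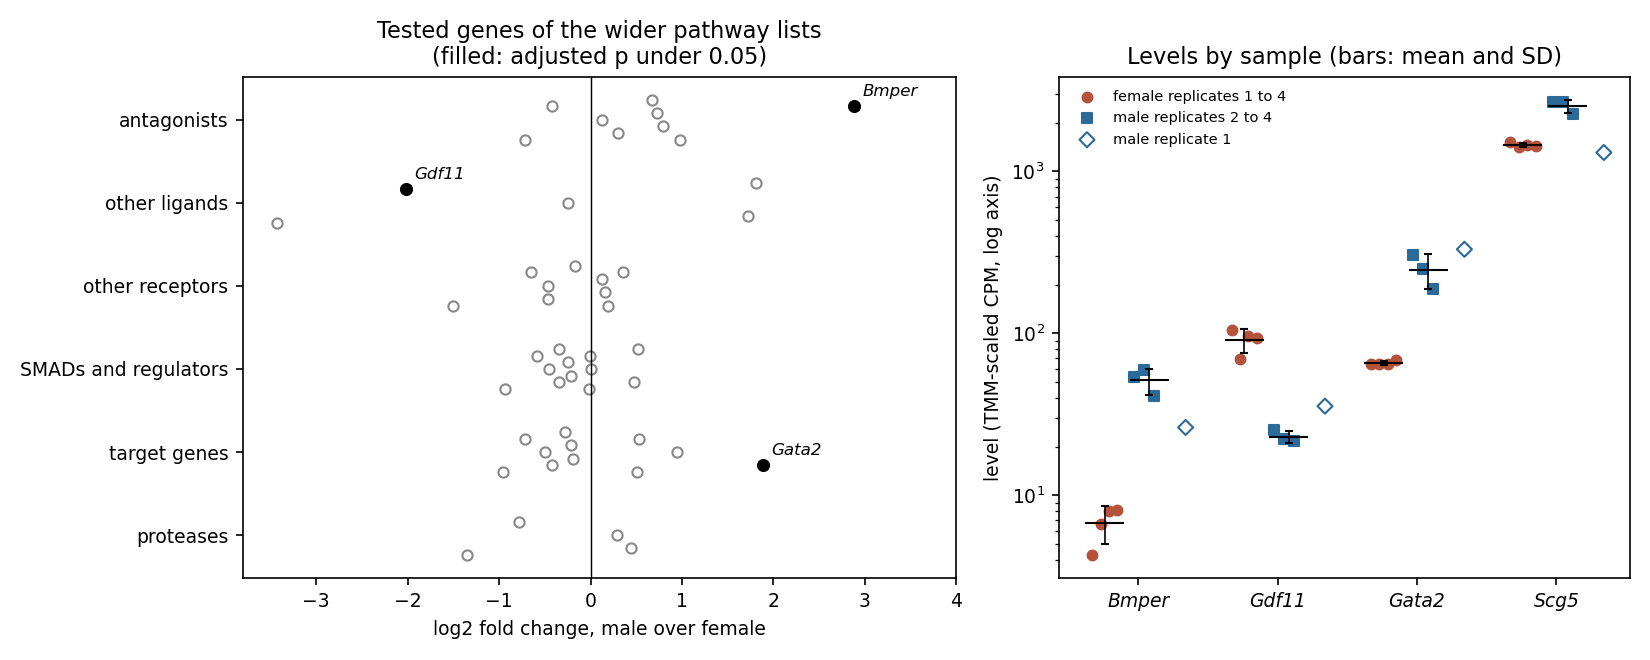
Left, the log2 fold change of male over female for the tested genes of the 6 wider lists, filled where the adjusted p was under 0.05. Right, the level in CPM on a log axis of the 3 genes that passed and of *Scg5*, in each sample, where *Gdf11* is lower and *Bmper*, *Gata2* and *Scg5* are higher in males 2 to 4 (squares) than in the females (circles), with bars for the mean and SD.

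Apart from *Gata2*, none of the 11 target genes tested passed by edgeR's quasi-likelihood test. Of the 11, *Gata2* included, 4 had a positive and 7 a negative log2 fold change of male over female. For 2 of the 11 each of males 2 to 4 was above each female, and for 2 the reverse held, as for 11.5% and 10.8% of all genes tested. *Id1*, *Id2*, *Id3* and *Id4*, inhibitors of helix-loop-helix factors that SMADs induce, had log2 fold changes of -0.28, -0.49, -0.71 and -0.96, with adjusted p-values between 0.0776 and 0.864 by edgeR's quasi-likelihood test. Of these, the 4 females were above males 2 to 4 for *Id4*, at 71.0 to 128 CPM against 44.6 to 50.0 CPM, and male replicate 1 was 128 CPM. DESeq2 called *Id4* (adjusted p = 0.00832), as did edgeR with library size alone. The values of *Id1* and *Id2* changed sign over the samples left out. *Id1*, *Id2* and *Id3* were highest in female replicate 1, at 292, 469 and 485 CPM, and *Id4* was highest among the females there, at 128 CPM. The inhibitory SMADs *Smad6* and *Smad7* and the decoy receptor gene *Bambi*, which BMP signals also induce, had log2 fold changes of -0.94, -0.014 and 0.15, and none passed.

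The carriers of the signal were present in both sexes. *Smad1*, *Smad5* and *Smad4* were at least 34.8, 34.3 and 63.6 CPM in each sample, and *Smad9* was between 0.917 and 3.21 CPM. *Smad4* had a log2 fold change of -0.58 (standard error 0.18) and an adjusted p of 0.141 by edgeR's quasi-likelihood test. *Acvr1*, a type I receptor that serves BMP6 and BMP7, was 26.4 to 35.9 CPM in the females and 31.6 to 38.4 CPM in males 2 to 4, and *Acvr2a*, a type II receptor shared with activins, was 29.0 to 33.9 CPM and 25.9 to 30.7 CPM. *Acvr2b*, also a type II receptor, was at most 2.18 CPM except in female replicate 2, at 8.88 CPM, and male replicate 1, at 6.55 CPM.

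Among the other antagonists, *Fst*, the gene for follistatin, which binds activins and some BMPs, was at most 1.06 CPM and failed the filter on low counts. *Chrd*, for chordin, was 1.67 to 11.5 CPM in the females and 6.50 to 14.8 CPM in males 2 to 4, in ranges that overlapped. *Twsg1*, for a chordin partner, was between 98.3 and 141 CPM in female replicate 1 and male replicates 1 and 4 and between 6.93 and 12.5 CPM in the other 5 samples, a split that did not follow sex. The entries of *Smurf1* and *Furin*, named after their values were seen, also differed widely within a sex, *Smurf1* from 1 to 935 counts in the females, and what such assembled entries count is uncertain.

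The neighbours of *Grem1* on chromosome 2 were set beside it. *Scg5*, which encodes the chaperone 7B2 of a prohormone convertase, lies 17715 bases from *Grem1* on the same strand. It was 1424.7 to 1517 CPM in the females and 2263.5 to 2678 CPM in males 2 to 4. On the log2 scale the fold change was 0.77 (standard error 0.11, adjusted p = 0.0275 by edgeR's quasi-likelihood test), and the call did not hold without any one of female replicates 2, 3 and 4 and male replicates 2 and 3, nor with library size alone, nor with male replicate 1 included, where the adjusted p was 0.0531 and 0.410. In male replicate 1 *Scg5*, at 1309 CPM, was below each of the females. *Fmn1*, 29396 bases away on the other side, was 2.63 to 4.28 CPM in the females and 3.59 to 4.995 CPM in the males (log2 fold change 0.16, adjusted p = 0.792 by the same test), and *Arhgap11a* was at most 1.61 CPM in each sample.

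The genes whose pattern was most like that of *Grem1* were found by the Euclidean distance between log2(CPM + 1) profiles, each centred on its mean, over the 7 samples compared. The 5 closest of the 20152 genes tested were *Ddx3y* (distance 0.628), *1810009A15Rik* (2.48), *Eif2s3y* (3.60), *Gm4070* (3.86) and *Kdm5d* (4.31). *Ddx3y*, *Eif2s3y* and *Kdm5d* lie on the Y chromosome, while *1810009A15Rik* is on chromosome 19 and *Gm4070* on chromosome 7. Male replicate 1 had the Y-linked genes at the level of males 2 to 4 or slightly above, with *Ddx3y* at 195 CPM. Its *1810009A15Rik* level was 4.89 CPM, where males 2 to 4 had 47.4 to 55.0 CPM, and its *Gm4070* count was 0, where they had 15.5 to 27.6 CPM. With a pseudocount of 0.1, or over all 8 samples, 4 of the 5 genes were the same. With the pseudocount of 0.1 the gene that left the 5 was *Ddx3y*, the closest in the first setting, and over all 8 samples the gene that left was *Gm4070*.

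Markers of other cells were set beside these results, since some of the genes are known in other cell types, *Grem1* among them in fibroblasts. The 7 stromal markers summed to 124 to 174 CPM in the females, 108 to 117 CPM in males 2 to 4 and 114 CPM in male replicate 1. For 2 of the 7, *Col1a1* and *Col3a1*, each female was above each of males 2 to 4, as for 10.8% of all genes tested. The reverse held for 0, and 0 of the 7 passed the threshold. The 4 endothelial markers summed to 359 to 472 CPM in the females, 349.8 to 472 CPM in males 2 to 4 and 672 CPM in male replicate 1, the sample with the highest *Bmp6*. The 3 stem cell markers summed to 244 to 383 CPM in the females and 138 to 173 CPM in males 2 to 4, and 305 CPM in male replicate 1. Of these *Sox9* passed the threshold (adjusted p = 0.0417 by edgeR's quasi-likelihood test), a call that was lost when any one sample was left out, at 0.0580 to 0.135, and the adjusted p reached 0.438 over the alternatives. The 4 macrophage markers summed to 12.5 to 23.5 CPM in the females and 12.9 to 22.2 CPM in the males. The part of other cells in these differences was not tested.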

How the data were processed

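RNA from sorted EGFP-positive gonadotropes was sequenced from both ends of each fragment. Per the study's methods and the submitters' processing notes, the authors trimmed reads with cutadapt, mapped them to mm10 with STAR and counted them with featureCounts, all with default settings. The annotation is not given in the sources used here, and the entry names have the form that StringTie assembly gives. The authors deposited raw counts per gene entry, in 1 table of 8 samples.

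Samples were grouped by sex from the labels. Counts were tested with edgeR 4.0.16 in R 4.3.3 (TMM factors, filterByExpr, quasi-likelihood F-test, Benjamini-Hochberg adjustment over all 20152 genes tested), with males 2 to 4 set against the 4 females, and p-values were adjusted over no smaller list. The standard error is the absolute log2 fold change over the square root of F. CPM used TMM factors over 8 samples. The floor of 3 counts covers counting error only. Exon lengths came from GENCODE M21 and promoters from RefSeq (GRCm38.p6). The test was checked on simulated counts. Alternatives were DESeq2 1.42.0, other scalings and filters, all 8 samples, a replicate block, counts summed over a locus, and each sample left out. The members and lists were chosen with earlier results of these data known. The genes named were the 9, a fixed set of pathway genes, those of the wider lists that passed, the neighbours of *Grem1*, the 5 genes most like it in pattern, and cell type markers. A gene of the fixed lists is not reported here. *Txndc5* was added after its values were seen. *Hjv* was matched by its older symbol. Python 3.11.15 was used for the other steps.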

Additional observations from a re-analysis of the deposited data

Results flagged for a closer look

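Of 64 groups of 4 samples examined, over 32 genes and both sexes with male replicate 1 counted among the males, 8 had 1 sample far from the other 3. About 3.2 would be expected by chance if the groups were independent. They share samples, so no excess is read from this. None of the 8 groups was of a gene among the 9. Male replicate 1 stood apart for *Acvr2b*, at 6.55 CPM against 1.02 to 1.77 CPM, and for *Id4*, at 128 CPM against 44.6 to 50.0 CPM. Male replicate 2 stood apart for *Id1*, at 212 CPM against 63.9 to 72.7 CPM, and for *Fst*, at 0.197 CPM against 0.954 to 1.06 CPM. Female replicate 1 stood apart for *Twsg1*, an entry whose content is uncertain, at 98.3 CPM against 6.93 to 10.9 CPM, and female replicate 2 for *Acvr2b*, at 8.88 CPM against 1.08 to 2.18 CPM. *Fst* was 0.246 CPM in female replicate 3 and at 0 in the other females. For *Gata2*, female replicate 4 had 68.5 CPM and the other females 64.4 to 64.8 CPM.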

How the results depend on the processing

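The number of genes called between the sexes, 471, was 2253 with DESeq2, 808 with library size alone, 177 with each gene that had a count, 67 with all 8 samples and 88 to 171 with a sample left out. With library size alone the share of calls higher in males went from 42.0% to 16.5%. Of the 9 genes, 1 was called, and 2 with DESeq2 and with library size alone, where *Bmp6* was added at -0.56 and -0.79. With at least 10 counts in every sample 0 of the 8 genes still tested were called by edgeR (3 at an unadjusted p under 0.05), where 3.64% of all genes were called and 23.0% had such a p, because *Grem1* fails that filter in female replicate 1, with 8 counts. Of the wider lists, 3 of 50 genes tested were called, 10 of 53 with DESeq2 and 5 of 50 with library size alone. Of all genes, 2.34% were called, 9.93% of those given an adjusted p with DESeq2, and 808 of 20152 with library size alone. The direction of *Nog* was reversed with library size alone (-0.028) and over the samples left out (-0.23 to 0.56), that of *Bmpr1a* over the samples left out (-0.27 to 0.12), and that of *Fmn1* with library size alone (-0.054). The other 7 of the 9 genes kept their direction in each alternative run.

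Same-numbered samples of the sexes share only a number. The correlations of their deviations over genes were -0.0193, -0.00823 and -0.000805 for replicates 2, 3 and 4, and no male correlated best with its own number. With the replicate number as a block, edgeR called 0 genes (2954 at an unadjusted p under 0.05), 0 of the 9 genes (3 unadjusted) and 0 of the wider lists (11 unadjusted), *Grem1* had a log2 fold change of 8.45 (adjusted p = 0.139) and *Bmpr1a* one of 0.0063. The adjusted p of *Bmper*, *Gdf11* and *Gata2* was then 0.196, 0.211 and 0.216. At 18774578 to 31302588 counts per sample, genes with few counts, such as *Fst*, with at most 28, failed the main filter, and *Fst* was not called in the 3 alternatives that tested it (adjusted p 0.22 to 0.403).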
